A study of Mus musculus with 2 samples.

Results

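Complement and coagulation factors are the plasma proteins that mark and lyse targets or form and dissolve clots, and 44 of their genes were described here in mouse liver cells measured by droplet single-cell RNA sequencing. The genes were taken by name from a list of symbols, with no threshold on a measured value, although the list was drawn up with earlier results of these data known. All 44 were found once by symbol in both libraries, among 32285 annotated genes per library.

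The tumour-model library, called the DDC and cMet library below, held liver cells of Sox9-CreERT2:Rosa26-mTmG mice kept on DDC with cMet introduced by HTVi for 5 months, mixed with cells of untreated WT mice on normal diet (day 0), with 2 mice of each kind. DDC is a compound fed in the diet that injures bile ducts and hepatocytes, and cMet is the receptor of hepatocyte growth factor. The DDC library held cells of mice carrying Sox9-EGFP that had been fed DDC for 2 weeks, again mixed with cells of untreated WT mice at day 0, with 2 mice of each kind. All mice had the strain label C57BL/6J;129S6/SvEvTac, cells were obtained by liver perfusion and were labelled as hepatocytes, and ages were not given. No barcode was tied to a mouse, so each library was 1 sample and a mixture of treated and untreated cells. Treatment, time, genotype and library cannot be told apart between the libraries, and no p-value can be given. Sox9-EGFP marks cells that express Sox9, a transcription factor of bile ducts and of hepatocytes in injured liver. WT cells carry no EGFP gene, so cells of the DDC library without EGFP can come from either genotype.

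After filters on genes, molecules and mitochondrial share, 8099 of 18316 barcodes (44.2%) were kept in the DDC and cMet library and 2903 of 8694 (33.4%) in the DDC library. Median depth was 13215 unique molecular identifiers (UMIs, one per captured RNA molecule) per kept cell in the DDC and cMet library and 29588 in the DDC library. The libraries shared 50 barcodes in all and 4 among kept cells. Cells without a strong non-parenchymal marker signal and with at least 50 Alb UMIs per 10000 UMIs were called Alb-high, after albumin, the main plasma protein of hepatocytes. They numbered 5248 (64.8% of kept cells) in the DDC and cMet library and 1960 (67.5%) in the DDC library, and their other hepatocyte markers summed to 351 and 324 UMIs per 10000. Cells in which macrophage markers led made up 24.9% of the DDC and cMet library and 20.5% of the DDC library, against the single cell-type label of both. The tdTomato reporter gene of the mTmG allele had 2 UMIs in the whole DDC and cMet library, so no comparison there used it.

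Hepatocytes make most circulating complement and clotting proteins. In complement, C1q or the mannose-binding lectins recognise a target, proteases cleave C4, C2 and C3, and C5 to C9 assemble the membrane attack complex, while inhibitors protect host cells. In coagulation, a cascade of proteases made in the liver ends in thrombin, which turns fibrinogen into fibrin, and plasmin dissolves the fibrin.

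Together the 44 genes took 2.70% of all UMIs of Alb-high cells in the DDC and cMet library and 2.28% in the DDC library. UMIs were counted at the 3′ ends of transcripts, so a level in UMIs per 10000 counts molecules and carries no length term. C3, the component on which all complement pathways converge, had the highest level of the 44 genes in both, at 39.5 UMIs per 10000 in the DDC and cMet library and 41.3 in the DDC library. The fibrinogen chains followed: Fgb had 36.9 and 31.7 UMIs per 10000, Fgg 21.0 and 21.0, and Fga 17.9 and 15.0, in the DDC and cMet and the DDC library. Levels of the other genes with UMIs ran from 19.0 (Vtn) down to 0.0513 UMIs per 10000 (Cfp) in the DDC and cMet library. In the DDC library they ran from 15.1 (Vtn) down to 0.0288 (Cfp) and 0.0149 (C8a). Cfd, the protease that activates factor B and a product of fat cells, had 0 UMIs in kept cells of both libraries, which allows at most 0.000183 UMIs per 10000 in the DDC and cMet library and 0.000323 in the DDC library (3 UMIs of the total). It was left out of every comparison, and 43 genes remained.

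**Figure D1:**
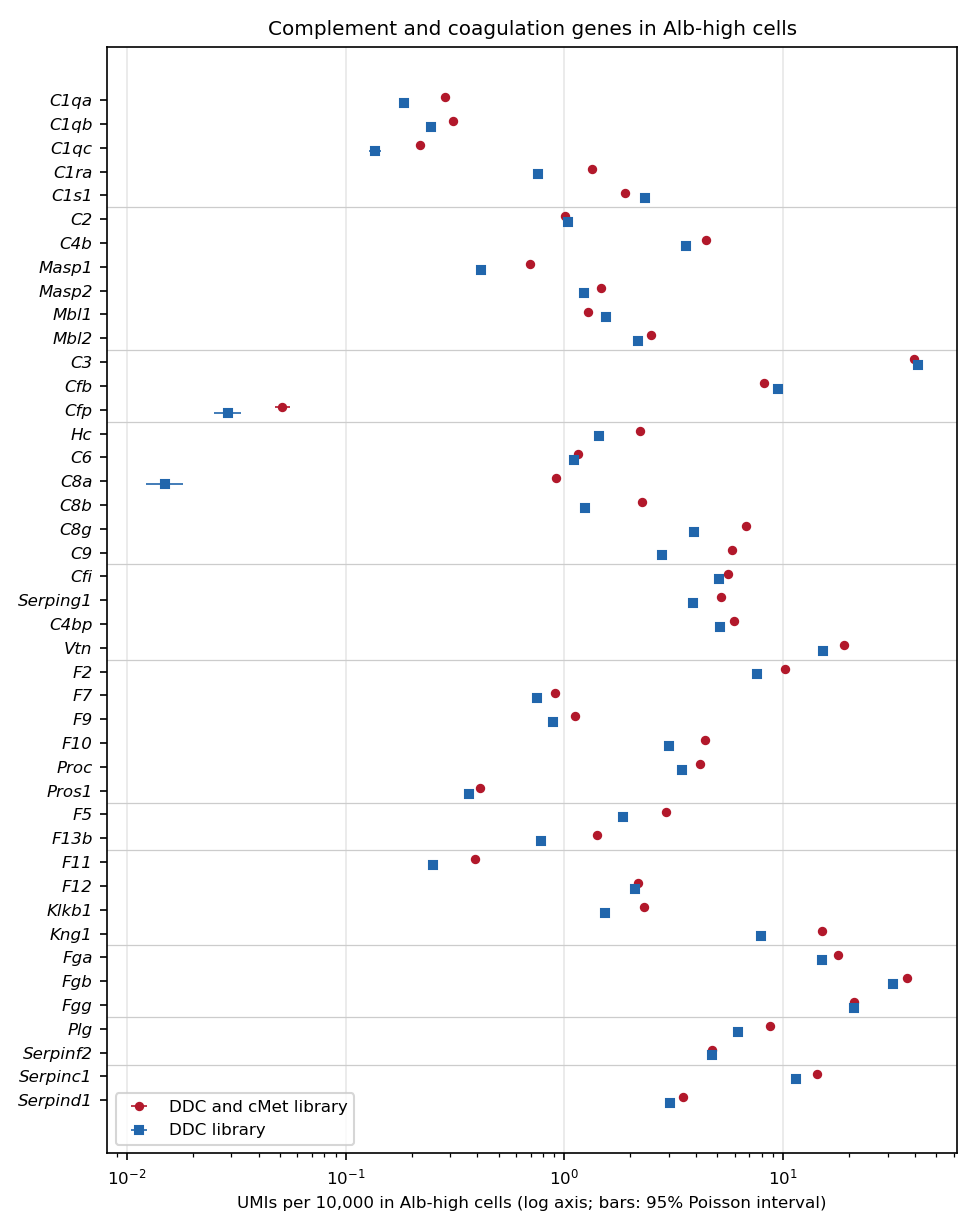
Level of each complement and coagulation gene in Alb-high cells, in UMIs per 10000 on a log axis, grouped by role with lines between roles. Red circles are the DDC and cMet library and blue squares the DDC library (1 library each), and bars are 95% Poisson intervals of the summed counts. C8a is the gene whose symbols lie farthest apart, at 0.919 and 0.0149 UMIs per 10000.

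Which cells held the RNA was asked first, by setting macrophage-marker cells against Alb-high cells within each library. Of the 43 genes, 5 were at least 2-fold higher and 36 at least 2-fold lower in macrophage-marker cells of the DDC and cMet library, where 32.5% and 18.4% of the 13707 genes compared passed the same limits. The DDC library had 5 higher and 34 lower, against 25.2% and 17.9% of 13068 genes. A gene was called macrophage-made where it was at least 4-fold higher in macrophage-marker cells of both libraries, and hepatocyte-made where it was at least 4-fold lower in both. By that rule 28 genes were hepatocyte-made, 4 were macrophage-made and 11 were not separated. The names compare macrophage-marker with Alb-high cells only, and a gene of either name can be higher in another class.

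The macrophage-made genes were the chains of C1q, the recognition subunit of the classical pathway, and Cfp, which encodes properdin, the stabiliser of the alternative pathway convertase. C1qa had 36.1 UMIs per 10000 in macrophage-marker cells and 0.285 in Alb-high cells of the DDC and cMet library, and 37.0 and 0.185 in the DDC library. Cfp had 5.87 UMIs per 10000 in macrophage-marker cells and 0.0513 in Alb-high cells of the DDC and cMet library, and 4.97 and 0.0288 in the DDC library. These are log2 differences of 6.99 and 7.65 for C1qa and 6.84 and 7.43 for Cfp. In Alb-high cells the C1q chains stood in nearby proportions to those in macrophage-marker cells, with a higher share of C1qb. C1qa gave 37.7% of C1q UMIs in macrophage-marker cells and 35.0% in Alb-high cells of the DDC and cMet library, and 35.4% and 32.6% in the DDC library. The share of C1qb was 34.6% in macrophage-marker and 38.0% in Alb-high cells of the DDC and cMet library, and 36.7% and 43.3% in the DDC library. The 8 macrophage markers summed to 0.940 and 0.645 UMIs per 10000 in Alb-high cells of the DDC and cMet and the DDC library, against 115 and 130 in macrophage-marker cells. The part of RNA from macrophages in the C1q and Cfp values of Alb-high cells was not tested.

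The C1q partners C1ra and C1s1, the proteases that C1q activates, were lower in macrophage-marker cells. C1ra had 0.438 UMIs per 10000 in macrophage-marker cells and 1.33 in Alb-high cells of the DDC and cMet library, and 0.261 and 0.759 in the DDC library. Stellate-marker cells had 1.62 and 0.789 UMIs per 10000 of C1ra in the DDC and cMet and the DDC library, near the levels of Alb-high cells. In the same order these cells also held Alb at 115 and 65.5, macrophage markers at 24.5 and 16.9 and endothelial markers at 23.9 and 11.1. Biliary markers were at 7.56 and 92.8. The part of other cells in the levels of stellate-marker cells, here and below, was not tested.

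Alb itself was counted in macrophage-marker cells, at 87.3 UMIs per 10000 in the DDC and cMet library and 36.0 in the DDC library. Among macrophage-marker cells with Alb under 50 per 10000 (1239 cells in the DDC and cMet library and 439 in the DDC library), 5 more genes met the limit for hepatocyte-made, which brought them to 33. These were C1s1, Mbl2 and F13b with the inhibitors Serping1 (C1 inhibitor) and C4bp (C4b-binding protein). C1ra, C2, C4b, Masp1, C6 and Pros1 stayed unseparated. This selection on low Alb was added after the data had been seen. Genes counted alongside Alb are set to fall with it, so the 5 added calls are not independent of the selection. The log2 difference of Alb itself went from -2.24 to -4.28 in the DDC and cMet library and from -2.80 to -4.54 in the DDC library.

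C6, a component of the membrane attack complex, was the one terminal component that was higher in macrophage-marker cells. It had 2.79 UMIs per 10000 there and 1.16 in Alb-high cells of the DDC and cMet library, a log2 difference of 1.27 (95% counting interval 1.22 to 1.31). The levels were 3.17 and 1.11 in the DDC library, a difference of 1.52 (1.46 to 1.57). With the low-Alb macrophage-marker cells the log2 difference was 1.45 in the DDC and cMet library and 1.67 in the DDC library. This selection changes only the macrophage side and also raised C1qa, to 7.28 and 7.86, so the rise is not particular to C6. In cells thinned to 2000 UMIs, a C6 UMI was found in 19.6% of Alb-high cells of the DDC and cMet library (exact 95% interval 18.5 to 20.7) and 20.5% of those of the DDC library (18.7 to 22.3). Endothelial-marker cells, the larger of the classes with low C6, had 6.71% (4.51 to 9.56) and 9.52% (4.20 to 17.9). Before thinning the shares were 63.5% and 79.6% of Alb-high cells and 17.7% and 20.2% of endothelial-marker cells, whose median depths were 8237 and 6938.5 UMIs, in the DDC and cMet and the DDC library. The part of free C6 RNA in the values of Alb-high cells was not tested.

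Masp1, a protease that acts with mannose-binding lectin, and Pros1, the protein S cofactor of activated protein C, had their highest levels outside both classes. Masp1 had 5.64 UMIs per 10000 in the 216 stellate-marker cells and 0.696 in Alb-high cells of the DDC and cMet library, and 3.87 in 66 stellate-marker cells and 0.415 in Alb-high cells of the DDC library. Pros1 reached 2.66 UMIs per 10000 in the 417 endothelial-marker cells and 0.409 in Alb-high cells of the DDC and cMet library, and 2.11 in 84 endothelial-marker cells and 0.368 in Alb-high cells of the DDC library. Serping1 also stood higher in stellate-marker cells, at 7.02 and 4.42 UMIs per 10000 in the DDC and cMet and the DDC library, than in Alb-high cells, at 5.17 and 3.85. C4b and C2, which together form the classical C3 convertase, were at least 4-fold lower in low-Alb macrophage-marker cells of the DDC and cMet library but not of the DDC library. C4b had 1.10 UMIs per 10000 in these and 4.43 in Alb-high cells of the DDC and cMet library, and 2.03 and 3.60 in the DDC library. C4b has a near-identical copy, C4a, and the sources used here do not say how reads common to both were assigned, so its level is uncertain.

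**Figure D2:**
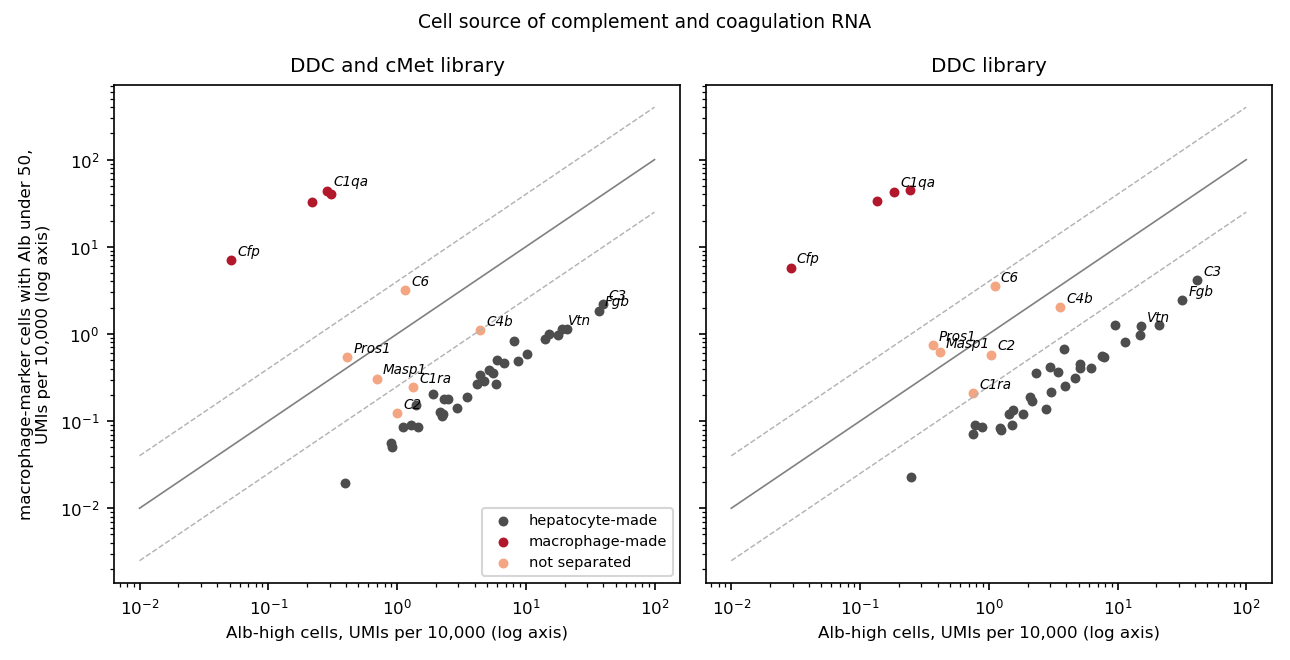
Level in macrophage-marker cells with Alb under 50 per 10000 against level in Alb-high cells, both in UMIs per 10000 on log axes, for each gene with a count in both classes; left, DDC and cMet library; right, DDC library. The solid line marks equal levels and the dashed lines 4-fold differences; C1qa, C1qb, C1qc and Cfp lie above the upper line and C6 between the lines in both libraries. C8a had 0 UMIs in macrophage-marker cells of the DDC library and is not drawn there.

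Alb-high cells of the DDC and cMet library were then set against those of the DDC library. Of 43 genes, 2 were at least 2-fold higher (C8a and C9) and 0 at least 2-fold lower, beside 5.70% and 12.9% of the 13500 genes compared. The median log2 ratio of the 43 genes was 0.33, with 37 above 0. That of all genes compared was -0.30, with 3862 of 13500 above 0, and that of Alb, on which the cells were chosen, 0.71. Apart from C8a, the 43 values lay between -0.30 (C1s1) and 1.06 (C9). Alb-high cells of the libraries also differed in median depth (20265 UMIs in the DDC and cMet library and 37525.5 in the DDC library) and in summed biliary markers (5.46 and 43.1 UMIs per 10000, nearly all Spp1), and the part of these in the ratios was not tested.

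C8a encodes the alpha chain of C8, a complex of alpha, beta and gamma chains that inserts into the membrane. It had 11767 UMIs in Alb-high cells of the DDC and cMet library, a level of 0.919 per 10000, and 106 UMIs in those of the DDC library, a level of 0.0149. The log2 ratio was 5.95 (95% counting interval 5.67 to 6.23), a 61.6-fold difference, and it lay between 5.61 and 6.29 under all 11 other settings. The partner chains C8b and C8g, which encode the beta and gamma chains, had log2 ratios of 0.88 and 0.79. C8a thus gave 9.23% of the UMIs of the C8 chains in Alb-high cells of the DDC and cMet library and 0.289% in the DDC library.

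The difference was spread over many cells. Among Alb-high cells with at least 20000 UMIs, thinned to 20000, a C8a UMI was found in 65.2% of 2635 cells of the DDC and cMet library (exact 95% interval 63.3 to 67.0) and in 3.09% of 1393 cells of the DDC library (2.24 to 4.14). Before thinning the shares were 76.0% and 6.17%, at median depths of 39159 and 45763 UMIs. C8b was found in 92.1% and 82.8% of the same cells after thinning. Macrophage-marker cells, which should lack C8a, had a C8a UMI in 23.8% of 269 such cells of the DDC and cMet library (median depth 24717) and in 0 of 240 of the DDC library (up to 1.53%), so background there was below the share in Alb-high cells. At a mean of 1.82 C8a UMIs per thinned cell in the DDC and cMet library, 34.8% of cells had none. F7, the factor VII gene, picked after its values were seen for its mean of 1.80 UMIs in the same cells, was missing in 20.1%.

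**Figure D3:**
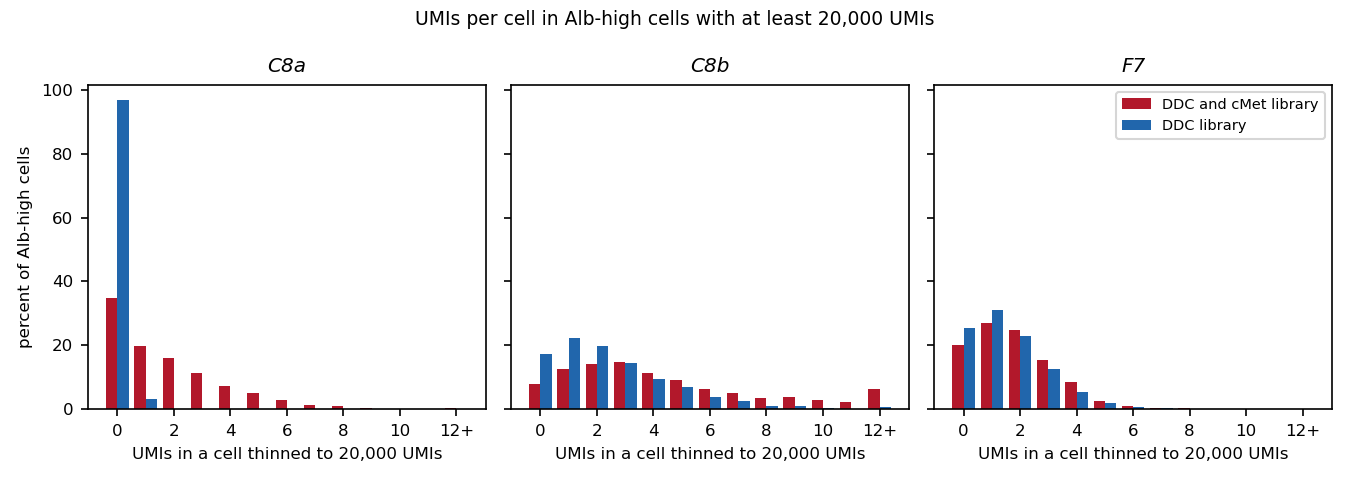
Percent of Alb-high cells with each number of UMIs of C8a, C8b and F7 (left to right) among cells of at least 20000 UMIs thinned to 20000; red bars are the DDC and cMet library (2635 cells) and blue bars the DDC library (1393 cells), and the last bar gathers 12 or more UMIs. For C8a, 34.8% of cells of the DDC and cMet library and 96.9% of cells of the DDC library are at 0, while C8b and F7 overlap between libraries.

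C8a lies beside C8b in the mouse genome: by the GENCODE annotation of GRCm38, C8b (chr4:104766317-104804548, plus strand) and C8a (chr4:104815679-104876398, minus strand) are separated by 11.1 kb. Their promoters, from 250 bases before to 50 after the start, are shown because these neighbours encode chains of 1 complex and had such unequal ratios between libraries; the spans are chr4:104876349-104876648 on the minus strand and chr4:104766067-104766366 on the plus strand. Capitals would mark matches to the HNF1, HNF4 and C/EBP motifs defined further on, and neither sequence holds one.
C8a: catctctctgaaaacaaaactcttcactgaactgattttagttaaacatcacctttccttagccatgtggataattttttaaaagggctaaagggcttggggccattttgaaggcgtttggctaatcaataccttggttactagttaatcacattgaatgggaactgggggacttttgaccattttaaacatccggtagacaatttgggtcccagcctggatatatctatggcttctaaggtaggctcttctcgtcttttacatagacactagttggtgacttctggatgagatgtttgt
C8b: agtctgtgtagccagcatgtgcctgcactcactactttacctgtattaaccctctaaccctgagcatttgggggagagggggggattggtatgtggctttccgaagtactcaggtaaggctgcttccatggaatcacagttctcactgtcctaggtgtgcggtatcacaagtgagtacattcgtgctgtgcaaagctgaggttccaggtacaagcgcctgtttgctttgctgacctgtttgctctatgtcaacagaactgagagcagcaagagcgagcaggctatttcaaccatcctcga

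The other terminal components were higher in the DDC and cMet library by smaller amounts, and with C8a all 6 lay above 0, with a median log2 ratio of 0.84. Of the 13500 genes compared, 3862 lay above 0. C9, the pore-forming subunit, had 5.85 UMIs per 10000 in the DDC and cMet library and 2.80 in the DDC library, a log2 ratio of 1.06 (1.04 to 1.09). It lay under 2-fold, at 0.81, when the comparison was limited to Plet1-zero cells, at 0.87 as a mean over cells and at 0.94 in thinned cells. Hc, the mouse C5 gene, had 2.22 UMIs per 10000 in the DDC and cMet library and 1.45 in the DDC library, and C6 had 1.16 and 1.11.

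Upstream of these, C3 and Cfb (factor B, the protease of the alternative convertase) were close between libraries, with log2 ratios of -0.06 and -0.23. Levels of Cfb were 8.13 UMIs per 10000 in the DDC and cMet library and 9.51 in the DDC library. Among clotting genes Kng1, which encodes the kininogen of the contact system, had the highest ratio, at 15.1 UMIs per 10000 in the DDC and cMet library and 7.87 in the DDC library (log2 ratio 0.94); reads of Kng1 and its close copy Kng2 may be split by the counting. Kng1 passed 2-fold as a mean over cells and, at 1.02, without mitochondrial and Alb UMIs in the total. F2, which encodes prothrombin, had 10.2 and 7.54 UMIs per 10000 in the DDC and cMet and the DDC library (0.43), and Plg, the plasmin precursor, 8.66 and 6.24 (0.47). Serpinc1, which encodes antithrombin, had 14.2 UMIs per 10000 in the DDC and cMet library and 11.4 in the DDC library (0.32). The fibrinogen chains lay between -0.00 (Fgg) and 0.26 (Fga).

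Within the DDC library, epithelial cells of at least 5000 UMIs were divided by the Sox9-EGFP reporter into 998 EGFP-zero, 708 EGFP-intermediate and 167 EGFP-high cells (at least 3 EGFP UMIs per 10000). The EGFP gene is carried only by the DDC-fed mice, while EGFP-zero cells can also come from untreated WT mice. Reporter level, diet and genotype therefore cannot be told apart in the EGFP comparisons. From zero through intermediate to high, Alb was 271, 221 and 107 UMIs per 10000, biliary markers 18.4, 55.4 and 184, stellate markers 0.302, 0.416 and 1.45, and median depth 33870, 47694.5 and 53179 UMIs. Of the biliary list, Krt7 and Krt19 had 2 UMIs each in EGFP-high cells and 2 each in EGFP-zero cells. Spp1 was at 179 UMIs per 10000 in EGFP-high and 17.4 in EGFP-zero cells. In the same order Sox9 was at 3.05 and 0.816, Cd24a at 2.14 and 0.160 and Epcam at 0.204 and 0.0283. The part of these differences in the values below was not tested. The 44 genes took 2.21%, 2.30% and 1.67% of UMIs in the same order.

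In EGFP-high against EGFP-zero cells 0 of 43 genes were at least 2-fold higher and 8 at least 2-fold lower, beside 11.5% and 5.79% of 11656 genes compared. The median log2 ratio of the 43 genes was -0.48, against 0.28 over all genes compared and -1.34 for Alb, and 38 of the 43 lay above the value of Alb. Only 5.79% of all genes compared were even 2-fold lower, so a place above Alb is not particular to these genes. The 8 genes at least 2-fold lower were Mbl2, C8g, C8a, C8b, Hc, Serpinc1, F11 and C6. In EGFP-intermediate against EGFP-zero cells 0 genes were past 2-fold in either direction, beside 1.46% and 1.33% of 12145 genes, and the median was 0.01 (0.07 over all genes compared). There the 43 values ran between -0.86 (Mbl2) and 0.40 (C2). Both comparisons share the EGFP-zero cells.

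Terminal components held 5 of the 8 lower genes, and C9 was the exception at -0.54. C8g had 4.46, 3.30 and 1.04 UMIs per 10000 in EGFP-zero, intermediate and high cells, a log2 ratio of -2.10 for high over zero. C8b had 1.31, 1.16 and 0.482 (-1.44), Hc 1.58, 1.31 and 0.598 (-1.40) and C6 1.20, 1.0 and 0.572 (-1.07). In each of these 4 genes the step between intermediate and high was the larger one. C8a was counted 5 times in EGFP-high and 64 times in EGFP-zero cells, and its ratio of -1.67 has a counting interval of -3.34 to -0.37.

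Cell by cell, in cells thinned to 20000 UMIs, C8b was found in 83.5% of EGFP-zero, 81.8% of EGFP-intermediate and 44.4% of EGFP-high cells. C6 was found in 83.0%, 79.7% and 49.4%, and F11, the factor XI gene of the contact system, in 38.5%, 35.4% and 18.8%. As background, macrophage-marker cells of the DDC library had a C8b UMI in 17.9% and an F11 UMI in 9.17% of 240 cells at the same thinned depth. The shares of C8b and F11 in EGFP-high cells were thus lower than in EGFP-zero cells and above that background. Macrophage-marker cells give no background for C6, which 85.4% of them held. In cells thinned to 2000 UMIs, C6 was found in 10.8% of EGFP-high and 22.3% of EGFP-zero cells, and in 9.52% of endothelial-marker cells of the DDC library (4.20 to 17.9), so its share in EGFP-high cells was not above that background.

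Mbl2, one of the mouse mannose-binding lectins, was already lower in intermediate cells, at 2.82, 1.55 and 0.643 UMIs per 10000 in EGFP-zero, intermediate and high cells (-2.13 for high over zero). Mbl1, the other, had 1.52, 1.55 and 0.965 UMIs per 10000, and its ratio for high over zero was -0.65. The share of Mbl1 among the UMIs of the lectin pair was accordingly 35.0%, 50% and 60% in the same order. Serpinc1 had 11.4, 11.2 and 5.23 UMIs per 10000 (-1.13) and F11 0.252, 0.253 and 0.116 (-1.11).

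Other genes did not follow these. Vtn, which encodes vitronectin, an inhibitor of membrane attack and an adhesion protein, had 12.6, 16.5 and 17.2 UMIs per 10000 in EGFP-zero, intermediate and high cells (0.45 for high over zero). C2 had 0.903, 1.19 and 1.38 (0.62), and Proc, the protein C gene, 3.09, 3.70 and 3.60 (0.22). Cfb, at 8.91, 10.1 and 8.64 UMIs per 10000, and Cfi, the factor I gene, at 4.62, 5.34 and 4.97, were nearly level. C3 had 41.3, 42.0 and 31.9 (-0.37). C1q chains had ratios of 0.60 to 0.68. Macrophage markers summed to 0.586 UMIs per 10000 in EGFP-high and 0.711 in EGFP-zero cells, but they were not of one direction. Csf1r (0.0968 and 0.0634 UMIs per 10000), Adgre1 (0.0403 and 0.0251) and Ctss (0.145 and 0.129) were higher in EGFP-high cells. Cd5l (0.128 and 0.189), Clec4f (0.0760 and 0.152), Marco, Cd68 and Timd4 were lower. The part of macrophage RNA in these C1q ratios was not tested.

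**Figure D4:**
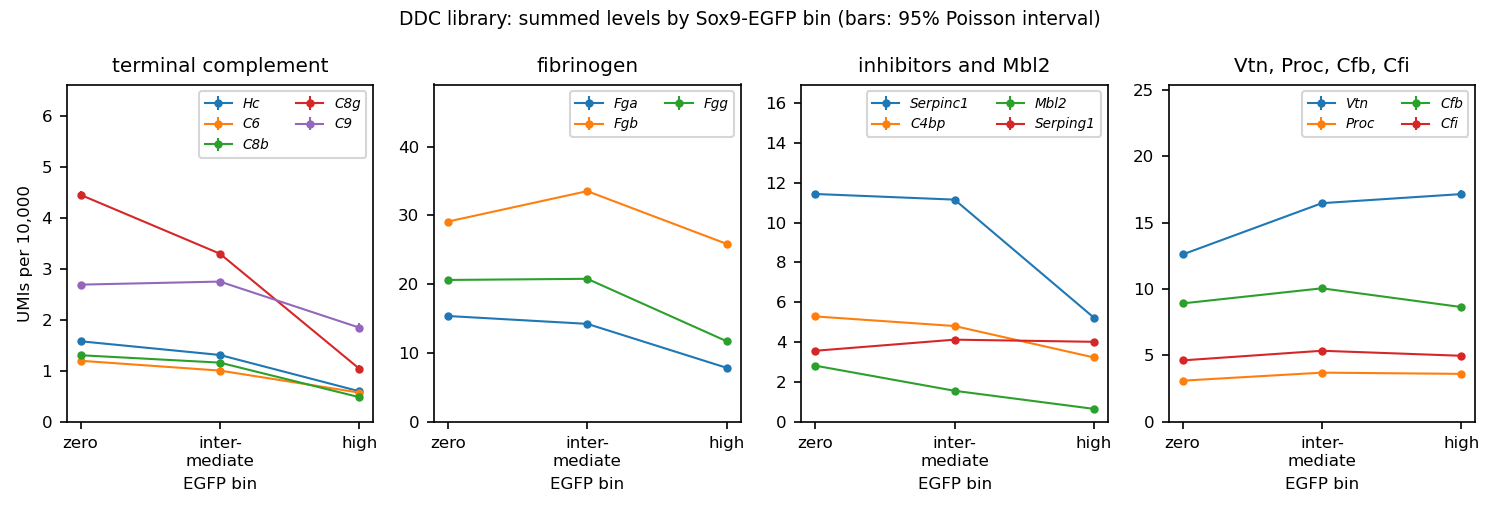
Levels in UMIs per 10000 in EGFP-zero (998), intermediate (708) and high (167) epithelial cells of the DDC library for terminal complement components, fibrinogen chains, inhibitors with Mbl2, and 4 genes with no decrease past 2-fold; points are summed levels of 1 library and bars 95% Poisson intervals, most of them smaller than the points. C8g is at 4.46, 3.30 and 1.04, while Vtn is at 12.6, 16.5 and 17.2.

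The fibrinogen chains, which are joined in equal numbers in the secreted protein, did not keep their proportions across the EGFP bins. Fga had 15.4, 14.2 and 7.84 UMIs per 10000 in EGFP-zero, intermediate and high cells (-0.97 for high over zero). Fgg had 20.6, 20.8 and 11.7 (-0.82), and Fgb 29.1, 33.5 and 25.9 (-0.17). Fgb therefore gave 44.7%, 48.9% and 57.0% of fibrinogen UMIs in the same order. The 3 genes lie in a row on chromosome 3, with 11.0 kb between Fgg and Fga and 6.51 kb between Fga and Fgb. Their promoters are shown as neighbours that moved together for Fga and Fgg and less so for Fgb. They span chr3:83025903-83026202 (Fga, plus strand), chr3:83049814-83050113 (Fgb, minus strand) and chr3:83007474-83007773 (Fgg, plus strand) of GRCm38.p6, and capitals mark, on either strand, the C/EBP motif TTGCNNAA in Fga and Fgb and the HNF1 motif GTTAATNAT in Fga.
Fga: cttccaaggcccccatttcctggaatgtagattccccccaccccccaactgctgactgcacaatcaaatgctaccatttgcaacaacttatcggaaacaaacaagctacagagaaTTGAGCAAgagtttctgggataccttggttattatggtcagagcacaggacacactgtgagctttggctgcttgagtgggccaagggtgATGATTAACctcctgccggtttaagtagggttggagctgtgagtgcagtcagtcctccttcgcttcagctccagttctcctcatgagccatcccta
Fgb: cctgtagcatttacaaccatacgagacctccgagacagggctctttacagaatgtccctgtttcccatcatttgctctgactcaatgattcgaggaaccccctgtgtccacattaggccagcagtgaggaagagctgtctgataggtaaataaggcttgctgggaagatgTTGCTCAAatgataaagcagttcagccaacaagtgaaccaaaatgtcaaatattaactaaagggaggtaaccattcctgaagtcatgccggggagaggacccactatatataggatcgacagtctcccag
Fgg: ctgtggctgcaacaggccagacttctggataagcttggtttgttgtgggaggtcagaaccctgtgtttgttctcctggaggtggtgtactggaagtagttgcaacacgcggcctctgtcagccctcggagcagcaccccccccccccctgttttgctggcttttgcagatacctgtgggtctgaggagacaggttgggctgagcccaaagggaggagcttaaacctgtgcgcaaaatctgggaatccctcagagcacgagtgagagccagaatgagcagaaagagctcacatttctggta

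The number of genes past 2-fold moved with the cells compared. With EGFP-high defined from 5 UMIs per 10000 (99 cells), 15 genes were at least 2-fold lower, and Fga (-1.32), Fgg (-1.18), F10 (-1.18), Klkb1 (-1.28), Plg (-1.08), Kng1 (-1.02) and Masp2 (-1.04) joined. Among Alb-high cells only (113 EGFP-high and 962 EGFP-zero), 5 of the 8 remained past it, and Serpinc1 (-0.79), F11 (-0.89) and C6 (-0.77) lay under 2-fold. In cells thinned to 2000 UMIs, Hc (-0.93), Serpinc1 (-0.77) and F11 (-0.96) lay under 2-fold and C4bp (-1.07) and F10 (-1.04) past it. Mbl2, C8g, C8b and C8a were at least 2-fold lower under every setting in which they could be compared.

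Plet1 encodes a surface protein known from placenta and epithelial progenitors, and epithelial cells of at least 5000 UMIs with 2 or more Plet1 UMIs were set against those with 0 in each library. In the DDC and cMet library these were 593 Plet1-positive and 2728 Plet1-zero cells, with Alb at 274 and 433 UMIs per 10000 and biliary markers at 17.5 and 3.03. In the DDC library 1282 Plet1-positive and 408 Plet1-zero cells had Alb at 197 and 357 and biliary markers at 66.7 and 10.6, and EGFP stood at 1.61 and 0.338 UMIs per 10000. Plet1-positive cells were deeper, with medians of 36077 against 31817 UMIs in the DDC and cMet library and 45342.5 against 30492 in the DDC library. The part of these values in the ratios was not tested.

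In the DDC and cMet library 0 genes were at least 2-fold higher and 1, Mbl2, at least 2-fold lower in Plet1-positive cells, beside 11.0% and 3.23% of 12493 genes compared. Plet1-positive cells of the DDC library had 0 higher and 2 lower, C8g and Mbl2, beside 9.01% and 3.30% of 12305 genes. The medians of the 43 genes were -0.12 and -0.23, against 0.33 and 0.22 over all genes compared, in the DDC and cMet and the DDC library. Alb, at -0.66 and -0.86 in the same cells, lay below 41 of the 43 genes in each library. It also lay below the medians of all genes compared, so a place above Alb is not particular to these genes.

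Mbl2 had 1.32 UMIs per 10000 in Plet1-positive and 2.73 in Plet1-zero cells of the DDC and cMet library (-1.05), and 1.62 and 3.27 in the DDC library (-1.01). C8g had 4.58 in Plet1-positive and 7.20 in Plet1-zero cells of the DDC and cMet library (-0.65), and 2.74 and 6.39 in the DDC library (-1.22). The log2 ratio of C8b was -0.91 in the DDC and cMet library and -0.73 in the DDC library, and that of Hc -0.56 and -0.58. In EGFP-zero cells of the DDC library alone, chosen after the data had been seen, Mbl2 was at -0.71 and C8g at -0.93. With Plet1-positive defined from 1 UMI, Mbl2 was at -0.67 in the tumour-model library and -0.88 in the DDC library, so its call rests on the limit chosen.

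C8a did not share the values of its partners in Plet1-positive cells of the DDC and cMet library. It had 1.04 UMIs per 10000 in Plet1-positive and 0.852 in Plet1-zero cells there (0.29), where C8b had 1.33 and 2.51. After thinning to 20000 UMIs a C8a UMI was found in 72.9% of 527 Plet1-positive and 60.4% of 1911 Plet1-zero cells, and a C8b UMI in 80.5% and 93.9%. C8a gave 15.0% of C8 UMIs in Plet1-positive and 8.07% in Plet1-zero cells of that library. In the DDC library C8a had 83 UMIs in Plet1-positive and 22 in Plet1-zero cells, and its ratio of -0.29 (-0.98 to 0.46) covers 0.

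On the other side, C2 had the highest ratio in both libraries, at 1.58 UMIs per 10000 in Plet1-positive and 0.895 in Plet1-zero cells of the DDC and cMet library (0.82) and 1.21 and 0.680 in the DDC library (0.83). Its neighbour Cfb, 86 bases away on chromosome 17, was at 0.46 and 0.23, and C3 at 0.26 and 0.01. Fibrinogen again leaned to Fgb, which gave 52.7% of fibrinogen UMIs in Plet1-positive and 47.9% in Plet1-zero cells of the DDC and cMet library, and 49.7% and 42.7% in the DDC library. The share of Mbl1 in the lectin pair was 48.4% in Plet1-positive and 31.4% in Plet1-zero cells of the DDC and cMet library, and 46.9% and 32.5% in the DDC library. F2, Plg and Serpinc1 lay between -0.55 and -0.12 in both libraries.

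**Figure D5:**
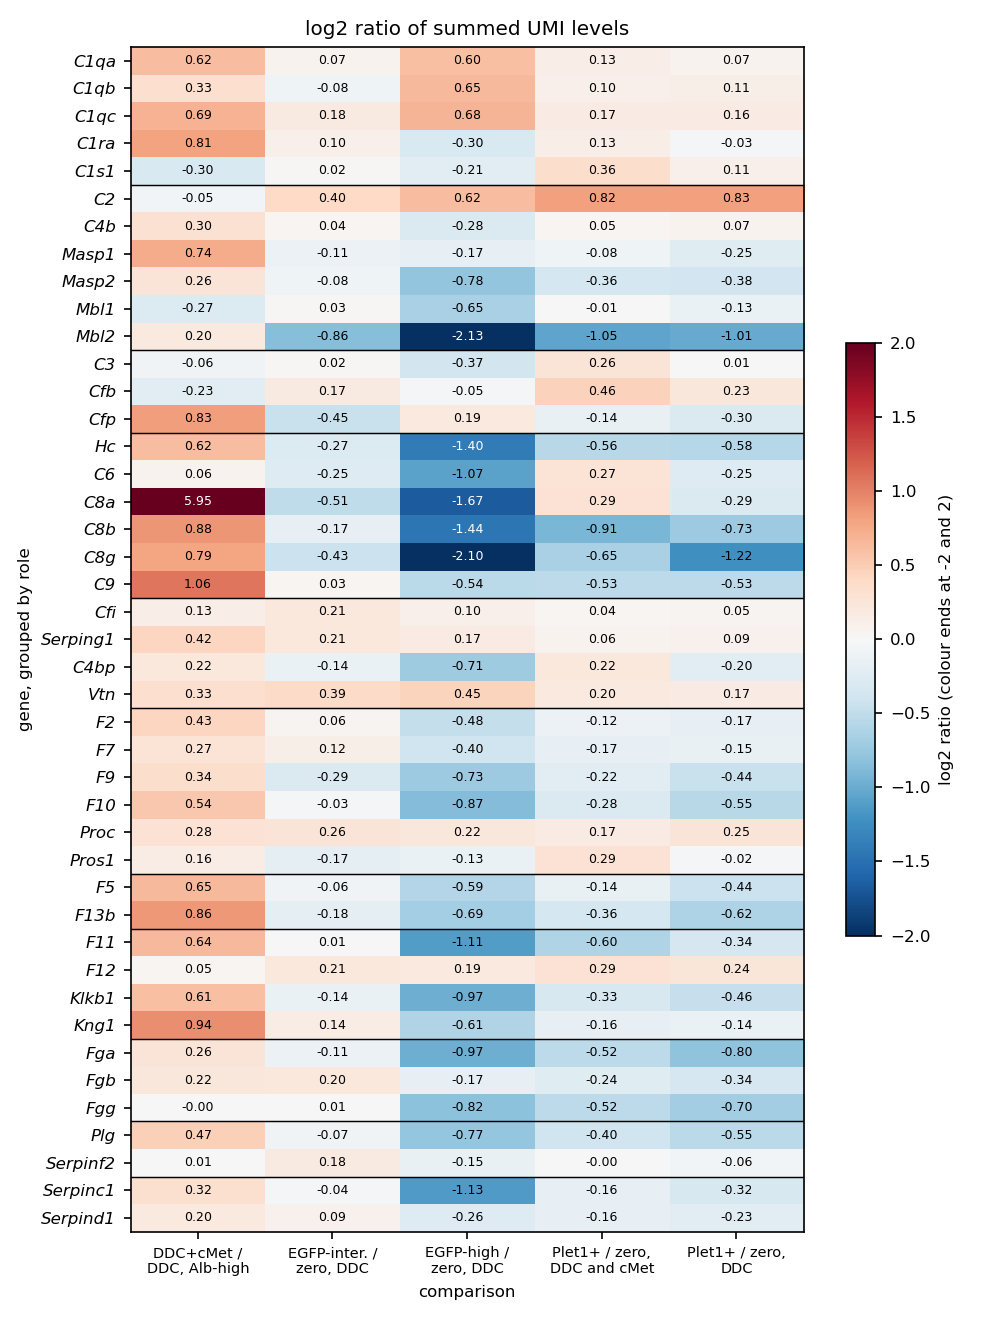
Log2 ratio of summed UMI levels for 43 genes (rows, grouped by role) in 5 comparisons (columns): Alb-high cells of the DDC and cMet over the DDC library, EGFP-intermediate and EGFP-high over EGFP-zero cells, and Plet1-positive over Plet1-zero cells of each library. Red is higher and blue lower in the first-named cells, colours end at -2 and 2, and each value is from 1 library; C8a in the first column (5.95) and Mbl2 and C8g for EGFP-high cells (-2.13 and -2.10) are the most extreme.

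Other genes of the pathways came from lists of 21 complement receptors, regulators and further components and 19 clotting and fibrinolysis genes. In Alb-high cells of the DDC and cMet over the DDC library, 2 of 17 compared complement genes were at least 2-fold higher and 1 lower, as were 2 and 3 of 16 clotting genes, beside the 5.70% higher and 12.9% lower of all genes compared. Clu, which encodes clusterin, a fluid-phase inhibitor of membrane attack, had 23.1 UMIs per 10000 in the DDC and cMet library and 99.8 in the DDC library (-2.11). Hrg, the histidine-rich glycoprotein gene, had 6.14 and 1.83 (1.75), while Plat, the tissue plasminogen activator gene, was at -3.70 and Plaur, the urokinase receptor gene, at -2.17.

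In EGFP-high against EGFP-zero cells 1 of 11 compared complement genes was higher and 2 lower, and 3 of 13 clotting genes were higher and 4 lower, beside 11.5% higher and 5.79% lower of all genes compared. F3, which encodes tissue factor, the cell-surface trigger of coagulation, had 0.242 UMIs per 10000 in EGFP-high and 0.0529 in EGFP-zero cells (2.20). Plaur was at 2.16, Plat at 2.00 and C4a at -1.97, the last with the same uncertainty as C4b. In EGFP-intermediate cells 0 of 13 clotting genes passed 2-fold, and 0 of 13 complement genes were higher and 1 lower (1.46% and 1.33% of all genes).

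In Plet1-positive cells of the DDC and cMet library 1 of 17 complement genes and 3 of 15 clotting genes were at least 2-fold higher and 0 lower, beside 11.0% and 3.23% of all genes compared. Clu had 53.1 UMIs per 10000 in Plet1-positive and 17.1 in Plet1-zero cells there (1.64), and F3 0.0807 and 0.0321 (1.33). Plat (49 and 19 UMIs) and Plaur (116 and 65 UMIs), named after their values were seen, were the others. In the DDC library 1 of 14 and 4 of 15 were higher and 0 lower, beside 9.01% and 3.30% of all genes, led by Plat (2.75), Plaur (2.13), F3 (1.81) and Clu (1.79).

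Promoter sequences of 34 of the 44 genes were found in the RefSeq table for GRCm38.p6 and searched on both strands, as were those of 27025 genes in all. The HNF1 motif GTTAATNAT was found in 4 (C4bp, F13b, Fga and Hc), which is 11.8% of the 34, beside 0.940% of all promoters. The C/EBP motif TTGCNNAA was found in 10 (29.4%, beside 12.2%), among them C3, C9, Fga, Fgb and Serpinc1, and the STAT motif TTCNNNGAA in 8 (23.5%, beside 9.55%), among them C8a, Fga, Fgb and Vtn. The NF-kB motif GGGANTTTC was found in 0 of 34, beside 1.29% of all promoters, and the HNF4 motif CAAAGTCCA in 0 of 34, beside 0.555%. A match is a string of letters in this window and not a bound site.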

How the data were processed

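Counts were analysed as deposited: per the file headers, Cell Ranger 5.0.1 wrote whole-number UMI counts per gene and barcode for 2 libraries of 10x 3′ single-cell RNA, 1 per group. Cell Ranger 6.0.1, the mm10 build and Seurat 4.0.1 are listed in the submitters' processing notes. The authors' gene and barcode lists were used only to name rows and cells.

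Kept barcodes had 500 or more genes, 2000 or more UMIs and no more than 30% mitochondrial UMIs, and no doublet caller was run, so cells with markers of several types can be doublets. A cell belonged to the non-parenchymal marker list, of 6 lists, with the highest sum if that reached 10 UMIs per 10000; otherwise it was epithelial. Raw counts were summed per class and scaled to 10000. Intervals are exact 95% Poisson or Clopper-Pearson limits and cover counting error only. A ratio needed 50 UMIs over both sides, a side at 0 was set to 3 UMIs, and 2-fold was the limit for a call; with 1 library per group no test was made. Depth was 186997180 UMIs in the DDC and cMet library and 104523363 in the DDC library. Counts were processed with Python 3.11.15, numpy 2.4.6, scipy 1.17.1 and pandas 2.3.3, and the code was tested on simulated data.

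The genes, lists and limits were chosen with earlier results of these data known. Any listed gene could be named; leading examples were those with the largest ratios among genes of at least 200 UMIs, and of the further pathway genes the 4 largest. Alternatives changed the weighting of cells, thinning, filters, UMI minimum, total, marker and Alb limits, and bins.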

Additional observations from a re-analysis of the deposited data

How the results depend on the processing

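No paired analysis was possible because each group was 1 library, and for the same reason no replicate could be left out. Counts of genes past 2-fold were recomputed under 17 settings, 4 of them added after the data had been seen: 119 counts stayed within 1.5 times of those reported, 11 did not, and no ratio past 2-fold changed sign. Between Alb-high cells of the libraries, 1 gene (C8a) was higher, in place of 2, both when cells were thinned to 2000 UMIs and in Plet1-zero cells of at least 5000 UMIs. For EGFP-high against EGFP-zero cells, 5 genes were lower in Alb-high cells and 15 with EGFP-high from 5 per 10000, in place of 8. For Plet1-positive cells of the DDC and cMet library, 1 gene (C2, at 1.03) was higher after thinning, in place of 0, and 0 were lower with 1 Plet1 UMI or in Alb-high cells, in place of 1. In the DDC library 1 was lower, in place of 2, with a marker limit of 5 per 10000, with 1 Plet1 UMI or in Alb-high cells, and 0 in EGFP-zero cells. The cause of these shifts was not tested. All genes past 2-fold between macrophage-marker and Alb-high cells were so under every setting in which they could be compared (41 genes in the DDC and cMet library and 39 in the DDC library, where C8a had too few UMIs after thinning). Depth limits C8a in the DDC library, where EGFP-high cells held 5 UMIs. Leaving mitochondrial and Alb UMIs out of the total moved the median of all genes by under 0.1 on the log2 scale in 6 comparisons and by -0.12 in the macrophage comparison of the DDC and cMet library.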
